A study of Mus musculus with 14 samples.

Results

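The endothelin genes measured here were the 3 ligand genes Edn1, Edn2 and Edn3, the receptor genes Ednra and Ednrb, and the converting enzyme genes Ece1 and Ece2. They were picked by symbol alone, and all 7 were found among the 40123 gene symbols of the deposited table and among the 29166 genes that passed the filter on low values. The libraries came from veins dissected out of mouse retina, each from 4 veins of 1 mouse, so the replicates were animals. The question, per the title, is whether raised eye pressure harms the barrier between blood and retina and so adds to the death of retinal ganglion cells. The 9 DBA/2J libraries came from an inbred strain that develops pigment dispersion, raised intraocular pressure and glaucoma with age. The 5 control libraries came from DBA/2J-Gpnmb+/SjJ, the same background with a working Gpnmb allele, which the labels call normotensive. All mice were 9 months old and had been given fluorescein, a vessel dye, at 0.33 mg/g 5 minutes before death, so both groups carried the dye. No eye pressure per mouse was used here.

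Endothelins are short peptides that act on vessels. Endothelial cells make endothelin-1 as a larger precursor, furin-like proteases trim it to big endothelin, and the endothelin-converting enzymes, membrane metallopeptidases, release the active peptide. The A receptor, Ednra, sits mainly on smooth muscle cells and pericytes and drives contraction through Gq, phospholipase C and calcium. The B receptor, Ednrb, sits on endothelium, where it leads to nitric oxide release and takes up the peptide, and also on astrocytes and Muller glia. In mouse retina Edn2 is known as a transcript that stressed photoreceptors induce, and Edn3 is best known for its part in neural crest development.

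Each value is an estimated count from kallisto after division by a library factor, called a scaled estimated count. The libraries held between 8.93 and 33.79 M estimated reads, and DBA/2J samples 1 and 4 were the shallowest. Behind each value of the 7 genes lay between 46.8 reads (Edn3 in DBA/2J sample 1) and 3944 reads (Edn2). Gpnmb, the melanosomal gene that differs between the strains, ranged from 65.4 to 516 in DBA/2J and from 1409 to 3190 in controls, so each library fitted its strain label. The 12 endothelial markers were above 0 in every library, as were the 8 vascular smooth muscle and the 8 pericyte markers. The 8 lens markers, all lower in DBA/2J, took 0.00128% to 0.952% of the total in DBA/2J and 6.75% to 14.6% in controls (exact permutation test, two-sided, p = 0.0005, the smallest that 2002 splits can give). By their library names, controls carried the lower numbers and DBA/2J the higher ones, so library order and strain cannot be told apart. In dissected vessels, fewer cells of a type and less RNA per cell also cannot be told apart.

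The 3 ligands are given by the 63 bases that code for the mature peptide of 21 residues, since it is this stretch that makes each gene product an endothelin. They were read from GENCODE M21 transcripts on GRCm38, plus strand, and in each gene they lie within exon 2. Capitals mark the 4 codons for the cysteines that close the peptide's disulfide bridges.
Edn1 (chr13:42303649-42303711): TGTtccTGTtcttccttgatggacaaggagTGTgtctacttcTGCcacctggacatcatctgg
Edn2 (chr4:120161951-120162013): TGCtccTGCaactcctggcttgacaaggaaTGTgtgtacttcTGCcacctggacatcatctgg
Edn3 (chr2:174761749-174761811): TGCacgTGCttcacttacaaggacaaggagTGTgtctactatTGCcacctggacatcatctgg
Edn2 and Edn1 shared 53 of 63 bases (84.1%), and 18 of 21 codons gave the same residue. Edn3 shared 50 bases (79.4%) with Edn1 and 48 bases (76.2%) with Edn2, with 15 residues the same in both cases. The final stretch after the fourth cysteine codon is the same in all 3 genes.

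In DBA/2J veins, 3 of the 7 endothelin genes rose: the ligand Edn2, the contractile receptor Ednra and the converting enzyme Ece1. None of the 7 fell, and Edn1, Edn3, Ednrb and Ece2 did not pass the test. As background, 12.1% of all tested genes passed as higher and 7.20% as lower (limma, adjusted p under 0.05). The 7 genes had a median log2 fold change of 0.66, beside 0.05 over all genes. Among the 14952 genes with a mean of at least 50, all 7 included, 3607 were higher and 1860 lower, with a median of 0.15. A larger share of better expressed genes was thus higher, and Ece2 also passed with that filter (limma adjusted p = 0.0484). The shares given beside the lists below are over all genes tested. Fold changes are on the log2(value + 1) scale, DBA/2J minus control, and gene coordinates are those of GENCODE M21 on GRCm38. With each library scaled to its total the median of all genes was 0.19, and the split of all calls was 5428 higher and 1308 lower, against 3518 and 2101 as deposited. After quantile normalization the split was 2740 higher and 2868 lower. Edn2, Ednra and Ece1 passed under both of these scalings.

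**Figure D1:**
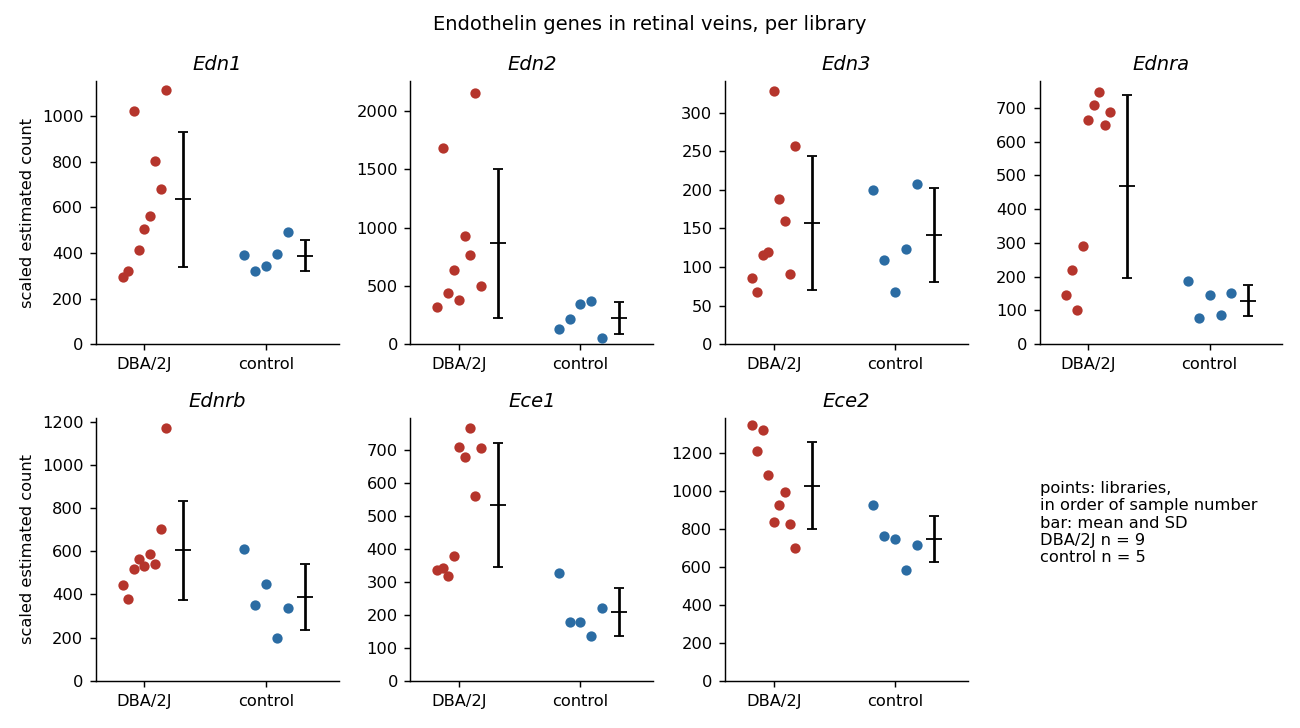
Scaled estimated count of each endothelin gene in each library, DBA/2J (red, n = 9) and control (blue, n = 5). Points are libraries in order of sample number, and bars give the mean and SD. Ednra lay between 101 and 746 in DBA/2J and between 76.4 and 187 in controls, and in DBA/2J its points form a low and a high set.

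Edn1 (ENSMUSG00000021367.8, chr13:42301476-42307990), the main endothelial ligand, ranged from 293 to 1112 scaled estimated counts in DBA/2J, with a median of 563. Control samples 1 to 5 were at 392, 320, 341, 394 and 493. DBA/2J samples 3 and 9 were high at 1020 and 1112, 6 of 9 DBA/2J libraries lay above the highest control, and 2 lay below the lowest, so the groups overlapped at both ends. The mean was 634 ± 295 in DBA/2J (SD, n = 9) and 388 ± 67 in controls (SD, n = 5), a log2 fold change of 0.58 (SE 0.29, limma adjusted p = 0.163). The relative spread was wider in DBA/2J, with a coefficient of variation of 46.5% against 17.3% in controls.

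Edn2 (ENSMUSG00000028635.7, chr4:120161206-120167360) ranged from 318 to 2154 scaled estimated counts in DBA/2J, with a median of 634. The 5 controls were at 131, 215, 343, 375 and 51.9. DBA/2J samples 2 and 8 stood highest at 1683 and 2154, and DBA/2J sample 1 alone lay within the control range. The mean was 866 ± 637 in DBA/2J (SD, n = 9) and 223 ± 137 in controls (SD, n = 5). This was the largest log2 fold change of the 7 genes, 1.96 (SE 0.48, limma adjusted p = 0.00945). The call held with each library left out in turn, with adjusted p between 0.00789 and 0.0265. Adjusted for the mean of the leukocyte markers the log2 fold change was 1.42 (adjusted p = 0.122), and for that of the endothelial activation genes it was 1.19 (adjusted p = 0.327). Against control samples 4 and 5 alone it was 2.32 (adjusted p = 0.0568), with fewer libraries in the fit.

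Edn3 (ENSMUSG00000027524.9, chr2:174760619-174784042) ranged from 67.4 to 328 scaled estimated counts in DBA/2J, with a median of 120. In controls it was 200, 109, 68.1, 123 and 208. Only DBA/2J samples 5 and 9 lay above the highest control, sample 2 lay just below the lowest, and the groups otherwise overlapped. The log2 fold change was 0.08 (SE 0.36, limma adjusted p = 0.899), and it lay below 0 after quantile normalization (-0.03). Within a library the ratio of Edn2 to Edn1 had a median of 1.09 in DBA/2J (range 0.429 to 5.28) and of 0.672 in controls (range 0.105 to 1.01). The ratio of Edn3 to Edn1 had a median of 0.231 in DBA/2J (range 0.112 to 0.65) and of 0.339 in controls (range 0.2 to 0.511), so both ratios overlapped between the groups.

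Ednra (ENSMUSG00000031616.7, chr8:77663031-77724464), the contractile receptor, ranged from 101 to 746 scaled estimated counts in DBA/2J, with a median of 650. Among controls it was 187, 76.4, 146, 85.2 and 151. The DBA/2J libraries formed a low and a high set with no value between 290 and 650. Samples 1 to 4 were at 146, 221, 101 and 290, samples 5 to 9 were at 663, 709, 746, 650 and 688, and the 5 high ones all exceeded every control. On the log2 scale the endothelium mean lay between 9.17 and 9.67 in DBA/2J samples 1 to 4 and between 10.02 and 11.36 in samples 5 to 9, and the pericyte mean between 8.62 and 9.47 and between 9.67 and 10.81. The leukocyte mean split at the same point (7.21 to 7.86 in samples 1 to 4, 8.27 to 9.84 in samples 5 to 9). So did the endothelial activation mean (6.29 to 8.00 and 8.13 to 10.54) and the fibroblast mean (6.47 to 7.25 and 7.90 to 9.20). The astrocyte mean split there narrowly (8.13 to 8.54 and 8.64 to 9.61). The smooth muscle, Muller glia, ganglion cell, pigment cell, inner neuron and lens means did not. Library numbers rose with sample numbers in DBA/2J, so the gap lay along library order too. What part any of these had in the gap was not tested. The mean was 468 ± 271 in DBA/2J (SD, n = 9) and 129 ± 46.9 in controls (SD, n = 5), a log2 fold change of 1.62 (SE 0.46, limma adjusted p = 0.0206). The call was lost without control sample 2 (adjusted p = 0.0561), without control sample 4 (adjusted p = 0.0599), and after a correction for transcript length and GC content (log2 fold change 1.24, adjusted p = 0.0702). Against control samples 1 to 3 alone it was 1.55 (adjusted p = 0.0912), and against control samples 4 and 5 alone 1.72 (adjusted p = 0.128), with fewer libraries in each fit.

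Ednrb (ENSMUSG00000022122.15, chr14:103814625-103844402), the endothelial and glial receptor, ranged from 380 to 1169 scaled estimated counts in DBA/2J, with a median of 539. In controls it was 609, 349, 450, 197 and 339. All 9 DBA/2J libraries exceeded the control median, but only 2, samples 8 and 9, exceeded control sample 1. The mean was 604 ± 230 in DBA/2J (SD, n = 9) and 389 ± 153 in controls (SD, n = 5), a log2 fold change of 0.66 (SE 0.26, limma adjusted p = 0.0806). Without control sample 1 the log2 fold change was 0.84 (adjusted p = 0.0272), and with each library scaled to its total it was 0.83 (adjusted p = 0.011). It was 0.35 after the correction for length and GC content (adjusted p = 0.451), 0.13 with the leukocyte mean as a covariate (adjusted p = 0.803) and 0.12 with the endothelial activation mean (adjusted p = 0.885). The ratio of Ednra to Ednrb within a library ranged from 0.195 to 1.38 in DBA/2J, with a median of 0.589, and from 0.219 to 0.444 in controls, with a median of 0.325. In the 4 DBA/2J libraries with low Ednra it was 0.33, 0.58, 0.195 and 0.515.

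Ece1 (ENSMUSG00000057530.14, chr4:137862237-137965229), the enzyme that cleaves big endothelin in vessels, ranged from 318 to 767 scaled estimated counts in DBA/2J, with a median of 560. The 5 controls were at 327, 178, 179, 136 and 222. In all but 1 of the DBA/2J libraries Ece1 lay above the highest control, and sample 3, at 318, lay just under it. As with Ednra there was a gap among the DBA/2J libraries, with samples 1 to 4 between 318 and 379 and samples 5 to 9 between 560 and 767. The endothelium, pericyte, fibroblast, astrocyte, leukocyte and activation means separated the same libraries, and the gap again lay along library order. The mean was 533 ± 188 in DBA/2J (SD, n = 9) and 209 ± 72.9 in controls (SD, n = 5), a log2 fold change of 1.33 (SE 0.26, limma adjusted p = 0.00284). The call held with each library left out in turn, with adjusted p between 0.00154 and 0.012.

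Ece2 (ENSMUSG00000022842.18, chr16:20629828-20646485), a related peptidase with an acidic pH optimum that is abundant in neural tissue, ranged from 700 to 1349 scaled estimated counts in DBA/2J, with a median of 997. In controls it was 926, 766, 750, 583 and 717. DBA/2J samples 1 to 4 were highest, between 1085 and 1349, where Ednra and Ece1 were low. The mean was 1028 ± 230 in DBA/2J (SD, n = 9) and 748 ± 123 in controls (SD, n = 5), a log2 fold change of 0.44 (SE 0.17, limma adjusted p = 0.0752). Ece2 passed with 10 of 37 other settings, among them the pericyte mean as a covariate (log2 fold change 0.57, adjusted p = 0.0217), and after the correction for length and GC content its log2 fold change was 0.10 (adjusted p = 0.782). The ratio of Ece1 to Ece2 ranged from 0.241 to 1.01 in DBA/2J, with a median of 0.679, and from 0.233 to 0.354 in controls, with a median of 0.239.

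**Figure D2:**
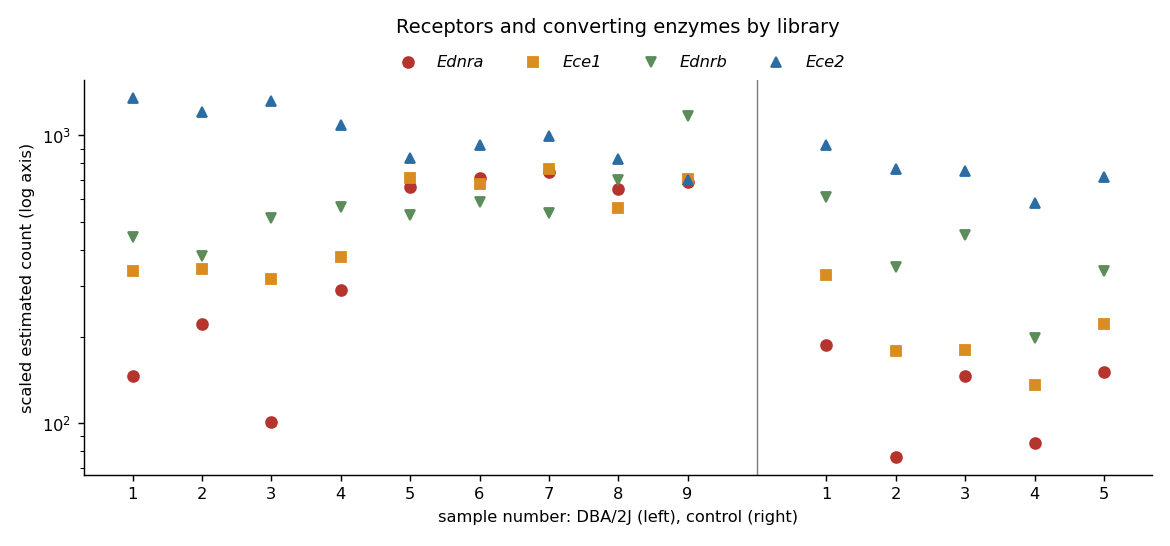
Scaled estimated counts (log axis) of the receptor and converting enzyme genes in each library, with DBA/2J samples 1 to 9 on the left and control samples 1 to 5 on the right. Ednra and Ece1 sit lower in DBA/2J samples 1 to 4 (Ednra at 290 or less) than in samples 5 to 9 (Ednra at 650 or more), while Ece2 is highest in samples 1 to 4.

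Reads carry no strand in the amplification used, so a gene on the opposite strand cannot be told apart from its partner. The annotated overlaps were small in value. 4933431K23Rik, across Ednra, averaged 9.28 ± 5.17 in DBA/2J (SD, n = 9) and 6.55 ± 3.61 in controls (SD, n = 5). Gm13012, within Ece1, averaged 2.69 ± 1.86 in DBA/2J (SD, n = 9) and 3.01 ± 3.62 in controls (SD, n = 5). Gm47118, within Edn1, did not exceed 10.5 in any library. Gm49333, a protein-coding gene on the same strand as Ece2 whose annotated span overlaps it, averaged 20.5 ± 26.1 in DBA/2J (SD, n = 9) and 35.7 ± 33.7 in controls (SD, n = 5), so the split of reads between it and Ece2 is uncertain.

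Per kb of the longest coding transcript, Edn2 had the highest mean level in DBA/2J, 592 ± 436 scaled estimated counts per kb (SD, n = 9), and the third highest in controls, 153 ± 93.9 (SD, n = 5). In DBA/2J, Ece2 (298 ± 66.6 per kb) and Edn1 (297 ± 138 per kb) followed, then Ednrb (147 ± 56 per kb), Ednra (129 ± 74.7 per kb), Ece1 (111 ± 39 per kb) and Edn3 (50.4 ± 28 per kb). In controls the order ran Ece2 (217 ± 35.6 per kb), Edn1 (181 ± 31.3 per kb), Edn2, Ednrb (94.7 ± 37.2 per kb), Edn3 (45.4 ± 19.4 per kb), Ece1 (43.3 ± 15.1 per kb) and Ednra (35.6 ± 12.9 per kb). Ednra was thus lowest of the 7 in controls and above Ece1 and Edn3 in DBA/2J. The ranges of neighbours in the order overlapped in both groups, so no pair of neighbours was set apart by the spread. Ece1 has coding transcripts of very different lengths, and with their mean length in place of the longest it came to 280 per kb in DBA/2J and 110 per kb in controls, the fourth level in both groups.

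**Figure D3:**
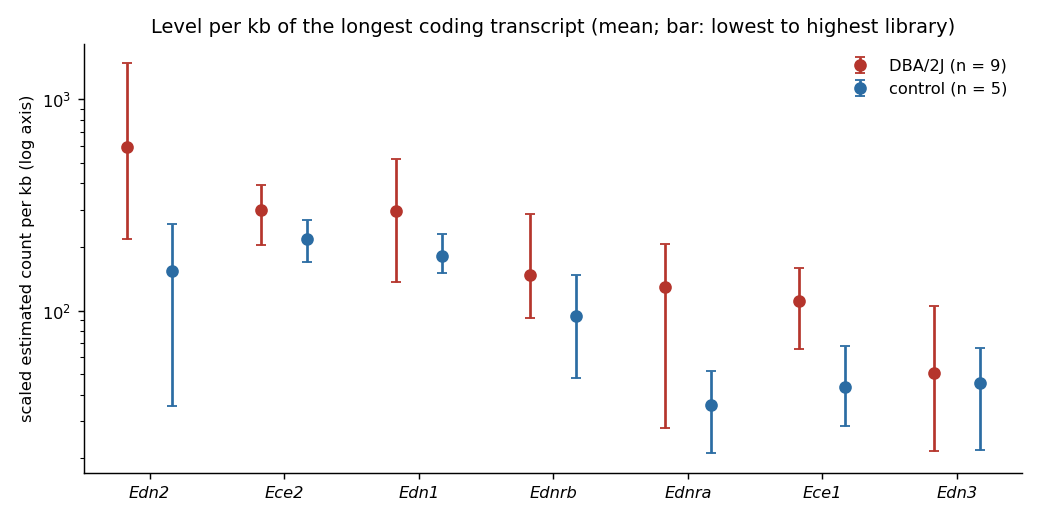
Level of each endothelin gene in scaled estimated counts per kb of its longest coding transcript (log axis), for DBA/2J (red, n = 9) and control (blue, n = 5). Points are means and bars run from the lowest to the highest library. Edn2 is highest in DBA/2J at 592, and Ednra is lowest in controls at 35.6.

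Several cell-type marker lists differed in sum between the strains beside the 3 genes that rose. The counts of markers below stand beside 12.1% higher and 7.20% lower over all genes tested. The sums are shares of a total that includes the lens markers. Those took 6.75% to 14.6% of it in controls and at most 0.952% in DBA/2J, which lowers the other shares in controls. Shares of a total without the lens markers were not computed. Of 8 pericyte markers, 2 were higher (Abcc9 and Pdgfrb) and none lower. Their median log2 fold change was 0.08 (lowest Cspg4, -0.22), beside 0.05 over all genes. The sum of the 8 was 0.0953% to 0.171% of the total in DBA/2J and 0.0744% to 0.109% in controls (exact permutation p = 0.017, adjusted p = 0.0492 over 13 lists). Of 8 Muller glia markers, 4 were higher (Aqp4, Kcnj10, Slc1a3 and Dkk3) and the other 4, none above 0 in log2 fold change (lowest Vim, -0.70), did not pass, with a sum of 0.286% to 0.683% in DBA/2J and 0.224% to 0.307% in controls (exact permutation p = 0.022, adjusted p = 0.0492). Of 9 leukocyte markers, 4 were higher (Cx3cr1, Ptprc, Laptm5 and Itgam), with a sum of 0.00938% to 0.0494% in DBA/2J and 0.00698% to 0.0105% in controls (exact permutation p = 0.0265, adjusted p = 0.0492). Of 9 endothelial activation genes, such as the adhesion genes Selp, Sele and Vcam1, 8 were higher, with a sum of 0.0186% to 0.126% in DBA/2J and 0.00834% to 0.0173% in controls (exact permutation p = 0.0195, adjusted p = 0.0492). In these 4 lists, the markers at 0 in any library were Sele and Selp. The 6 astrocyte markers (0.0973% in DBA/2J, 0.0374% in controls, exact permutation adjusted p = 0.0492), of which Gfap was higher (log2 fold change 1.48) and S100b lower (-1.31), and the 8 inner neuron markers (0.132% in DBA/2J, 0.0849% in controls, exact permutation adjusted p = 0.00325) were also higher in sum. For the sums of the endothelium, smooth muscle, ganglion cell, pigment cell and fibroblast lists the exact permutation p lay between 0.195 and 0.424. In the endothelium list 2 of 12 markers were higher (Tek and Pecam1), with a sum of 0.0615% to 0.285% in DBA/2J and 0.0822% to 0.128% in controls. Of 8 smooth muscle markers 1 was lower (Acta2), 1 had a log2 fold change above 0, and the median was -0.53. The smooth muscle sum was 0.0186% to 0.0609% in DBA/2J and 0.0366% to 0.0481% in controls. The ganglion cell sum was 0.0193% to 0.141% in DBA/2J and 0.0752% to 0.106% in controls. Of 8 ganglion cell markers 3 were lower (Sncg, Thy1 and Nefm), 0 had a log2 fold change above 0, and the median was -1.26. On the log2 scale their mean ran from 6.74 to 9.86 in DBA/2J and from 9.75 to 10.06 in controls. Pou4f2 was at 0 in at least 1 library. Of 8 pigment cell markers 2 were lower (Pmel, log2 fold change -2.35, and Sox10), 1 had a log2 fold change above 0, and the median was -0.86.

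With the mean of a marker list as a covariate, Ednra passed for endothelium (log2 fold change 1.13, limma adjusted p = 0.011) and pericytes (1.01, adjusted p = 0.044). It did not pass for Muller glia (0.60, adjusted p = 0.353), leukocytes (0.25, adjusted p = 0.705) and lens (0.89, adjusted p = 0.643), and with the endothelial activation mean the log2 fold change was -0.05 (adjusted p = 0.963). Ece1 did not pass with the leukocyte mean (0.67, adjusted p = 0.0777), the endothelial activation mean (0.49, adjusted p = 0.366) and the lens mean (1.09, adjusted p = 0.35), each time with the same sign. Edn2 did not pass with the lens mean (1.69, adjusted p = 0.409). With the ganglion cell mean, a covariate chosen after the data were seen, neither Edn2 (1.74, adjusted p = 0.0707) nor Ednra (0.74, adjusted p = 0.285) passed. Ece1 passed there (0.90, limma adjusted p = 0.043). The smooth muscle mean was also chosen after the data were seen. With that mean Edn2 (1.89, limma adjusted p = 0.0216), Ednra (2.31, adjusted p = 0.000644) and Ece1 (1.70, adjusted p = 0.000152) passed. The lens mean did not overlap between the strains (3.97 to 12.56 on the log2 scale in DBA/2J, 14.87 to 16.12 in controls). With it as a covariate 1 gene of all tested was higher and 9 were lower. The endothelial activation mean did not overlap either (6.29 to 10.54 in DBA/2J, 5.10 to 6.17 in controls). The leukocyte mean overlapped little (7.21 to 9.84 in DBA/2J, 6.78 to 7.30 in controls). Fits with these means thus tell list and strain apart poorly or not at all. What part any of these cells or states had in the differences was not tested.

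**Figure D4:**
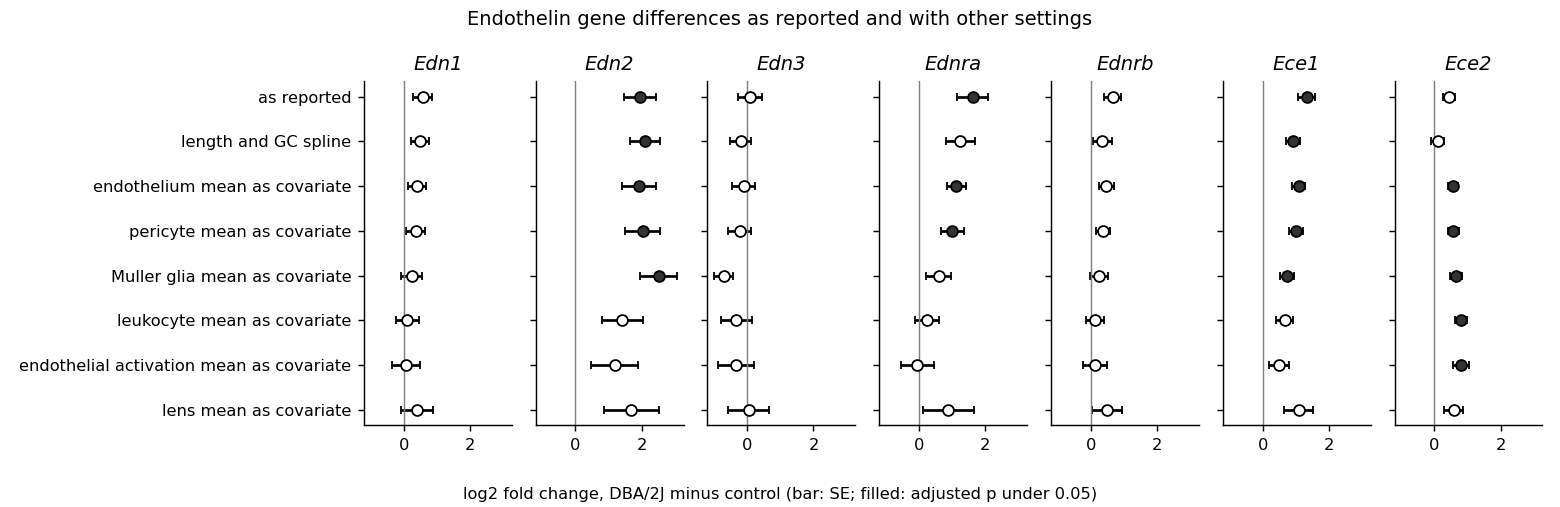
Log2 fold change of each endothelin gene, DBA/2J minus control, with its SE, as reported and with a correction for length and GC content or with the mean of a marker list as a covariate. Filled points have a limma adjusted p under 0.05. Edn2 is filled in 5 of the 8 settings shown, and Ednra lies at 1.62 as reported and at -0.05 with the endothelial activation mean.

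The 9 DBA/2J libraries differed among themselves, and the genes were set beside 4 list means and the library number across them. Of 35 such relations, the 10 of Ednra and Ece1 are not given, since their values lay in 2 sets of under 6 libraries each. Of the other 25, 9 had an adjusted p under 0.05 for Pearson's r, and 4 also for Spearman's ρ. Edn3 went with the Muller glia mean (r = 0.86, exact permutation p = 0.00335, adjusted p = 0.0275; ρ = 0.90, p = 0.00203, adjusted p = 0.0237), and r was 0.85 without the 2 farthest libraries. Ednrb went with the endothelium mean (r = 0.75, exact permutation p = 0.00871, adjusted p = 0.0339; ρ = 0.83, p = 0.00827, adjusted p = 0.0413), again with r = 0.75 without the 2 farthest libraries.

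Library numbers rose with sample numbers in DBA/2J, so the gaps of Ednra and Ece1 lay along library order as well. The endothelium and pericyte means were also higher in samples 5 to 9 than in samples 1 to 4. Relations of Ednrb and Ece2 with these means and with library number thus cannot be told apart. Among the relations given, those with library number had opposite signs for a receptor and an enzyme. Ednrb was higher at higher library numbers (r = 0.84, exact permutation p = 0.000799, adjusted p = 0.0243; ρ = 0.90, p = 0.00203, adjusted p = 0.0237), with r = 0.83 without the 2 farthest libraries. Ece2 was lower at higher library numbers (r = -0.90, exact permutation p = 0.00141, adjusted p = 0.0243; ρ = -0.92, p = 0.00131, adjusted p = 0.0237), with r = -0.80 without them. Ece2 also had negative r with the endothelium (-0.79), pericyte (-0.77) and Muller glia (-0.77) means (exact permutation adjusted p = 0.0341, 0.0341 and 0.0375), with ρ of -0.78, -0.72 and -0.75 that did not pass (adjusted p = 0.0548, 0.0645 and 0.0595). Without the 2 farthest libraries r was -0.80, -0.63 and -0.67. Edn3 had r = 0.77 with the pericyte mean (exact permutation adjusted p = 0.0341; ρ = 0.75, adjusted p = 0.0595), and 0.58 without 2 libraries. The positive relation of Ednrb with the pericyte mean (r = 0.75, exact permutation adjusted p = 0.0341; ρ = 0.70, adjusted p = 0.0688) rested on 2 libraries, without which r was 0.22. After the correction for length and GC content both of these pericyte relations lost their call, as did that of Ece2 with Muller glia. Edn2 passed none of its 5 relations, with r between -0.25 and 0.54.

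Over all 14 libraries, with each gene centred on its group mean, Ednra and Ece1 varied most closely together (r = 0.90). Edn3 and Ece1 had r = 0.73, and Ednrb and Ece1 had r = 0.65, while Ece2 ran against Ednra (r = -0.64) and Edn2 ran against Edn3 (r = -0.57). These values are descriptions, and the libraries share depth and tissue makeup across genes. Among 12057 genes with a mean of at least 100, the closest to Ednra were Osmr (r = 0.950), Synpo (r = 0.934) and Tnfrsf1a (r = 0.930). Osmr, the oncostatin M receptor, averaged 942 in DBA/2J and 238 in controls (log2 fold change 1.84, limma adjusted p = 0.00171). The closest to Ece1 were Myo1c (r = 0.958), Cmtm6 (r = 0.953) and Ppp2r5a (r = 0.947), and the closest to Edn3 were Dag1 (r = 0.958), Lrrc58 (r = 0.936) and Amotl2 (r = 0.926). Ednrb was closest to Ppp4c (r = 0.932), Ilk (r = 0.919) and Map1lc3b (r = 0.914), and Edn1 to Tmem11 (r = 0.849), Cdkn1a (r = 0.844) and Errfi1 (r = 0.835). Edn2 had the weakest matches, Zbtb48 (r = 0.825), Krt1 (r = 0.817) and Ebf4 (r = 0.807), and Ece2 was closest to the neuronal enolase Eno2 (r = 0.873).

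The promoters of the 3 genes that rose are shown as the 250 bases before the annotated start, since Ednra and Ece1 varied together. They come from RefSeq on GRCm38.p6. Ece1 has 4 starts, of which the first and the third are shown, and the counts per gene do not tell starts apart. The third was chosen because it held the most matches. Capitals mark matches on either strand to the hypoxia response cores ACGTG and GCGTG. The AP-1 motif TGANTCA, the STAT motif TTCNNNGAA and the GATA motif GATAA were also searched on both strands.
Edn2 (chr4:120160956-120161205, plus strand): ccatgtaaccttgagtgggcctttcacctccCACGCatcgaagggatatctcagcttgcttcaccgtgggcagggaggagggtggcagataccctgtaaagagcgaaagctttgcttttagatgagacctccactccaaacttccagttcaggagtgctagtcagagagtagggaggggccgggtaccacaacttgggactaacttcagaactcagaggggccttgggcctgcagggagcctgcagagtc
Ednra (chr8:77724453-77724702, minus strand): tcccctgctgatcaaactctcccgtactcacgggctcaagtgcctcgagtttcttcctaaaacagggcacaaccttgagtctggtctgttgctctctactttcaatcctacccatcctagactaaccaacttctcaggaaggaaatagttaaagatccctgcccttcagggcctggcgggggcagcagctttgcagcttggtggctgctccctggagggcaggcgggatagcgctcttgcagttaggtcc
Ece1 start 1 (chr4:137861987-137862236, plus strand): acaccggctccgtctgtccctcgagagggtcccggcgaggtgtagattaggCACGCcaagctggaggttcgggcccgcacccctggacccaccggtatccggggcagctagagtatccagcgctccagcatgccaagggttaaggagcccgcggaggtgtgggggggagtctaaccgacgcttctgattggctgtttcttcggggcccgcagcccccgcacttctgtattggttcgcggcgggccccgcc
Ece1 start 3 (chr4:137913308-137913557, plus strand): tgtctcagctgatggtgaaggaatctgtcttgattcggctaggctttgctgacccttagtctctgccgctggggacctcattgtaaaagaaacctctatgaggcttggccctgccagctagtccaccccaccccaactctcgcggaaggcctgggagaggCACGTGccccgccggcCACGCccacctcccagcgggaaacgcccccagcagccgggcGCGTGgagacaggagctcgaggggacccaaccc
Counted back from the start, Edn2 held 1 GCGTG match at -219, and Ece1 start 1 held 1 at -199. Ece1 start 3 held ACGTG matches at -90 and -89, which overlap as the 2 strands of 1 palindrome, and GCGTG matches at -74 and -33. The fourth Ece1 start, not shown, held no match. Ednrb and Ece2, which did not pass, held GCGTG at -99 and ACGTG at -92. The Ednra window held none of the 5 motifs, and no window shown held AP-1, STAT or GATA letters. Of 32851 promoter windows of this length, 16.6% held ACGTG, 28.2% GCGTG, 6.7% the AP-1 motif, 7.0% the STAT motif and 22.6% the GATA motif. A match is a description of the letters and not of a binding site.

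In the list of peptide processing and clearance genes, which also held relatives such as Ecel1, 3 of 9 tested rose and none fell. This stood beside 12.1% higher and 7.20% lower over all genes, and the median log2 fold change was 0.66. Furin, the protease that trims the precursor, ranged from 1227 to 2640 in DBA/2J (median 1551) and was 1347, 1040, 664, 548 and 892 in controls. Its lowest DBA/2J values lay within the control range and the other 7 lay above it (log2 fold change 0.98, SE 0.22, limma adjusted p = 0.00585). Pcsk7, a furin relative, rose by 0.71 on the log2 scale (SE 0.19, adjusted p = 0.0154), and Mmp2, a matrix protease that can cleave big endothelin-1, by 0.66 (SE 0.22, adjusted p = 0.0427). The Mmp2 call was lost under median-of-ratios scaling (0.61, adjusted p = 0.0584), and after the correction for length and GC content 1 of the 9 genes was higher (5.28% of all genes). Ecel1, a relative of Ece1 known in neurons, averaged 603 ± 572 in DBA/2J (SD, n = 9) and 46.5 ± 19.6 in controls (SD, n = 5), and its log2 fold change, 2.71, missed the threshold (adjusted p = 0.0992). DBA/2J sample 3 held 1 estimated read of Ecel1, and the other 8 libraries lay between 179 and 1963, above every control. Pcsk6, another furin relative, was at 0.59 on that scale (adjusted p = 0.0671).

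In the receptor signalling list, 5 of 30 genes rose and none fell, beside 12.1% higher and 7.20% lower over all genes, so the count lay near the background. The median log2 fold change was 0.19. Rock2, a kinase of the contractile pathway, ranged from 1753 to 2385 in DBA/2J (median 1903) and was 1332, 1003, 802, 1273 and 1423 in controls. The groups did not overlap (log2 fold change 0.76, SE 0.14, limma adjusted p = 0.002). For Mylk, the myosin light chain kinase, it was 0.76 (adjusted p = 0.0111). The phospholipase C genes Plcb4 and Plcb3 had 0.56 (adjusted p = 0.0131) and 0.83 (adjusted p = 0.0432), and the protein kinase C gene Prkcd 0.88 (adjusted p = 0.0214). The Gi subunit gene Gnai2 had 0.47 (adjusted p = 0.168), and Rgs5, a pericyte gene that dampens G protein signals, had 0.06 (adjusted p = 0.92). With each library scaled to its total 13 of the 30 genes were higher (18.6% of all genes), and after quantile normalization 2 were (9.39% of all genes). After the correction for length and GC content 2 were higher and 4 lower (5.28% and 7.15% of all genes).

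Of 15 genes known to act on Edn1 transcription, 3 rose and none fell, beside 12.1% higher and 7.20% lower over all genes, and the median log2 fold change was 0.34. Jun, a subunit of AP-1, ranged from 1867 to 4668 in DBA/2J (median 3106) and was 1560, 1607, 1766, 1400 and 1909 in controls, so that 8 of 9 DBA/2J libraries lay above every control (log2 fold change 0.87, SE 0.18, limma adjusted p = 0.00367). Hif1a, the hypoxia-inducible factor subunit, ranged from 3749 to 8278 in DBA/2J (median 5866) and was 4526, 2373, 795, 1826 and 2937 in controls (log2 fold change 1.36, SE 0.30, adjusted p = 0.00573), and 6 of 9 DBA/2J libraries lay above every control. F2r, the thrombin receptor, had a log2 fold change of 1.64 (SE 0.42, adjusted p = 0.0125), with its lowest value, 49.8, in control sample 3. Epas1 had 0.12 (adjusted p = 0.773) and Junb 0.31 (adjusted p = 0.524).

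Among 13 genes of the opposing vasodilator pathways, 4 rose and none fell, beside 12.1% higher and 7.20% lower over all genes, and the median log2 fold change was 0.20. The subunits of the nitric oxide receptor, Gucy1a1 and Gucy1b1, had log2 fold changes of 0.78 (SE 0.15, limma adjusted p = 0.00262) and 0.87 (SE 0.23, adjusted p = 0.0149). Gucy1a1 ranged from 2490 to 4541 in DBA/2J (median 3129) and was 2313, 1683, 1381, 1762 and 2159 in controls, with no overlap. Prkg1, the kinase that cyclic GMP activates, had 0.79 (adjusted p = 0.019), and Calcrl, the adrenomedullin receptor, 1.16 (adjusted p = 0.0359). Nos3, the endothelial nitric oxide synthase, had 0.34 (adjusted p = 0.175), and Ramp2, the partner of Calcrl, -0.35 (adjusted p = 0.555). Without control sample 3, 1 of the 13 genes was higher (7.83% of all genes). After the correction for length and GC content none passed (5.28% of all genes), with log2 fold changes of 0.38 for Gucy1a1 (adjusted p = 0.0577), 0.67 for Gucy1b1 (adjusted p = 0.0531), 0.52 for Prkg1 (adjusted p = 0.0813) and 1.14 for Calcrl (adjusted p = 0.0630).

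**Figure D5:**
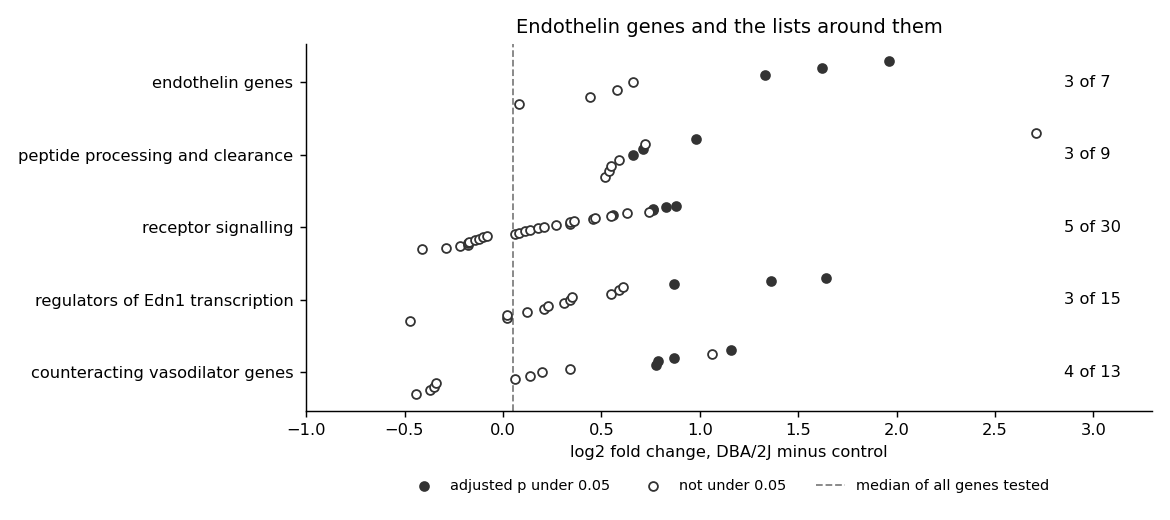
Log2 fold change, DBA/2J minus control, of each tested gene among the endothelin genes and the 4 lists around them. Filled points have a limma adjusted p under 0.05, and the numbers at the right give how many of how many are filled, 3 of 7 for the endothelin genes. The dashed line marks 0.05, the median of all genes tested.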

How the data were processed

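RNA of retinal veins was measured in 14 libraries (9 DBA/2J, 5 control). Per the series design text, SMART-Seq v4 and Nextera XT libraries were made from roughly 100 pg RNA (integrity number over 9). That text names kallisto with GRCm38 and GENCODE M23, while the submitters' processing notes name GRCm39 and sleuth, and which build was used is not settled. The signal values the authors deposited are, from the values, estimated counts divided by a factor per library. The making of these factors and the summing of transcripts per gene are not stated in the sources at hand. Whole reads could not be recovered, so the main test was not a count model, and depth was estimated from the step between low values. Among the alternatives, the voom fit used reads estimated from that step. Without molecular identifiers, depth covers counting error only.

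The table had 40149 lines, and 26 whose symbol had become a date (at most 0.201% of a total) were dropped. Of the 40123 symbols, 39019 matched GENCODE M21 (GRCm38), the source of coordinates and lengths. The filter was a value of 1 or more in 5 or more libraries. Two-sided limma tests (version 3.58.1, trend option, R 4.3.3) used log2(value + 1) and a group term only, Benjamini-Hochberg adjusted over all 29166 genes at 0.05. That scale understates changes of low genes. List sums and relations used exact permutation tests (Python 3.11.15). The result of 1 of the 13 marker lists is not reported here. The members and lists were chosen with earlier results of these data known. All members are named, and from each list up to 6 genes that pass, by p, and up to 2 that do not, by mean, plus the 3 genes most like each member. In simulated data of these group sizes over 29166 genes, 200 genes of higher mean were changed. The noise was drawn apart for each gene and library, with a capped spread. There the test found 47% of 2-fold and 96% of 4-fold changes, while 5.92% of its calls were false. Tissue makeup shared across genes was not simulated, so the false share among the real calls is not known from it. The alternatives covered scaling, filters, pseudocounts, weights, a spline of 5 degrees of freedom on length and GC content, covariates, subsets and each library left out.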

Additional observations from a re-analysis of the deposited data

Results flagged for a closer look

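Of 60 groups of values checked, 8 held a library set apart from the others of its group by a gap that is large for the group's range on the log2 scale. Chance gives about 1 in 20 groups. None of the 8 was in a ligand, receptor or converting enzyme gene. Ecel1 was at 0.808 in DBA/2J sample 3, where the nearest other DBA/2J library was at 179, and at 15.3 in control sample 4, where the nearest control was at 48.1. DBA/2J sample 6 stood highest for 3 genes, with Rock2 at 2385 (nearest 1997), Gucy1a1 at 4541 (nearest 3268) and Gucy1b1 at 1510 (nearest 1003). Control sample 3 stood apart for 3 genes, with F2r lowest at 49.8 (nearest 185), Epas1 highest at 3899 (nearest 2037) and Ramp2 highest at 3357 (nearest 2099). All values are scaled estimated counts.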

How the results depend on the processing

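Edn2, Ednra and Ece1 passed under 32, 26 and 34 of 37 alternatives, with log2 fold changes of 1.19 to 2.51, -0.05 to 2.31 and 0.49 to 1.70. Where Edn2 did not pass, it was 1.69 with the lens mean as a covariate, 1.42 with the leukocyte mean, 1.19 with the activation mean, 1.74 with the retinal ganglion cell mean and 2.32 against control samples 4 and 5 alone. Ednra was 1.24 after the length and GC spline, 0.60 with the Muller glia mean, 0.89 with the lens mean, 0.25 with the leukocyte mean, -0.05 with the activation mean, 0.74 with the ganglion cell mean, 1.55 against control samples 1 to 3 and 1.72 against control samples 4 and 5. Ece1 was 1.09 with the lens mean, 0.67 with the leukocyte mean and 0.49 with the activation mean. The fit called voom weights also scaled each library to its total, so it did not test the weights alone. Genes that gained a call were Edn1 with voom weights (0.81) and with the smooth muscle mean (0.87), Ednrb scaled to totals (0.83), to totals without the lens list (0.68), with voom weights (0.83), with the smooth muscle mean (0.98) and against control samples 4 and 5 (1.15), and without control sample 1 (0.84), and Ece2 with a mean of at least 50 (0.44), scaled to totals (0.61), with voom weights (0.59) and with the endothelium (0.56), pericyte (0.57), Muller glia (0.66), leukocyte (0.79) and activation (0.81) means, and without control sample 1 (0.52) or DBA/2J sample 9 (0.51). In the other direction, Edn1 was 0.07 with the activation mean, 0.11 with the leukocyte mean, 0.23 with the ganglion cell mean and 0.24 with the Muller glia mean, Ednrb was 0.25 with the Muller glia mean and 0.33 against control samples 1 to 3, and Ece2 was 0.29 after quantile normalization. Edn3 turned negative after quantile normalization (-0.03), the spline (-0.20), with the endothelium (-0.11), pericyte (-0.23), Muller glia (-0.71), leukocyte (-0.33), activation (-0.34) and ganglion cell (-0.22) means, and against control samples 4 and 5 (-0.20). The cause was not tested.

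With each library left out in turn, log2 fold changes ran from 1.45 to 1.85 for Ednra, from 0.44 to 0.84 for Ednrb, from 0.35 to 0.52 for Ece2 and from -0.15 to 0.25 for Edn3. Counts of all genes ran from 2283 to 3974 higher and from 1247 to 2341 lower, the lowest without control sample 3. The signalling list had 3 to 6 higher genes and the vasodilator list 1 to 4.

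Counts of all genes, 3518 higher and 2101 lower as reported, were 5428 and 1308 scaled to totals, 1539 higher after the spline, 1134 higher with the Muller glia mean, 1 and 9 with the lens mean, 1253 and 1365 with the activation mean, 1416 and 971 with the ganglion cell mean, 2334 and 1373 against control samples 1 to 3, 1673 and 773 against control samples 4 and 5, and 1338 lower with voom weights. After the spline the processing list had 1 higher gene, the signalling list 2 higher and 4 lower, and the vasodilator list 0 higher. The signalling list had 13 higher scaled to totals and 2 after quantile normalization, and the Edn1 regulator list 5 scaled to totals. Over the DBA/2J libraries, after the spline r was -0.14 for Edn2 with the endothelium mean, 0.69 for Edn3 and 0.72 for Ednrb with the pericyte mean, and -0.75 for Ece2 with the Muller glia mean. Relations of Ednra and Ece1 are not given under alternatives either.

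Sample numbers are shared by 5 DBA/2J and 5 control libraries, but deviations of same-numbered samples correlated at -0.122, 0.023, -0.151, 0.022 and -0.027, so the numbers do not pair them. With a replicate block Ednra had 0.90 (adjusted p = 0.181), Edn1 0.25 and Edn3 -0.10, and Edn2 and Ece1 still passed. All genes gave 1408 higher and 1057 lower calls under the block, and the lists gave 0 higher for processing, 2 for signalling, and 1 higher and 1 lower for the vasodilator genes. Chosen after the data were seen were voom weights, the smooth muscle and ganglion cell means, the fit without DBA/2J samples 1 and 4 (in which no call of the 7 genes changed), and the scalings and the block for the lists.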
